A study of Mus musculus with 12 samples.

Results

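The endothelial genes of the newborn mouse bladder were followed across all 12 arrays of the series. The 32 genes formed a list of endothelial markers, and each was read through a probe set, a group of short array probes for one transcript, that was annotated to that gene alone. Where a gene had several such probe sets, the one of highest mean stood for it. All 32 genes had one, of 18193 genes with such a probe set on the array, and 31 of the 32 lay above the filter on low values and were tested. The exception was Prox1, whose level is given as a description.

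The samples were bladders taken whole at postnatal day 1 from mice of the FVB/N strain. RNA was not pooled, so each array stood for 1 sample, and there were 3 groups. In the SMGA/EGFP group (3 arrays) the promoter of the smooth muscle gamma actin gene Actg2 drove a green fluorescent protein, and in the SMAA/EYFP group (3 arrays) that of the smooth muscle alpha actin gene Acta2 drove a yellow one. The wild-type group had 6 arrays. All animals were male per the labels. Transgenic litters came from FVB/N females mated to transgenic males and wild-type litters from FVB/N females mated to control males, so genotype cannot be told apart from the litter or the sire. Both promoters are those of smooth muscle genes. The values below belong to the whole tissue and not to isolated vessels. Fewer endothelial cells and less RNA per endothelial cell cannot be told apart in such samples.

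Endothelial cells line blood and lymphatic vessels. They are held together by cadherin and claudin junctions, they grow and survive on signals from vascular endothelial growth factors and angiopoietins through receptor tyrosine kinases, and their identity is kept by transcription factors of the ETS and SOX families. In the bladder, vessels run through the lamina propria beneath the urothelium and through the muscle wall.

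Promoter sequences of the members are shown because ETS factors such as Erg bind a GGAA core, which many endothelial genes carry near their start. Promoter windows came from RefSeq (build GRCm38.p6), in which 16 of the 32 members had an entry, with 22 windows in all. For 6 of the growth factor receptors, co-receptors and surface proteins described below, the 120 bases before the start are printed. They read 5′ to 3′ on the gene's own strand, and the 6 do not stand for the whole list. Capitals mark each AGGAAG, or CTTCCT where the match lies on the other strand.
Flt1 (chr5:147726012-147726131, minus strand): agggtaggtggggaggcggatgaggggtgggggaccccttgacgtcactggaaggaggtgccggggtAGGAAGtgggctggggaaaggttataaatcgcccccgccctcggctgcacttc
Eng (chr2:32646475-32646594, plus strand): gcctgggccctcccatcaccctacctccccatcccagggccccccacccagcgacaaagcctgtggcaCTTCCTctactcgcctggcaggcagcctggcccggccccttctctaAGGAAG
Robo4 (chr9:37401852-37401971, plus strand): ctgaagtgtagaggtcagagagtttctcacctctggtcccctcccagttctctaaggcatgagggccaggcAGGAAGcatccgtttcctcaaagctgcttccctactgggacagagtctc
Emcn (chr3:137340958-137341077, plus strand): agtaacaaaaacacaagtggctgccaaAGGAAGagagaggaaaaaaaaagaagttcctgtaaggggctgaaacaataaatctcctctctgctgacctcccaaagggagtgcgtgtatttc
Tek (chr4:94739169-94739288, plus strand): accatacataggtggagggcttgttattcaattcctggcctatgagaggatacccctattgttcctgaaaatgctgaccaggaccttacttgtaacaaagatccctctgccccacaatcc
Kdr (chr5:75978456-75978575, minus strand): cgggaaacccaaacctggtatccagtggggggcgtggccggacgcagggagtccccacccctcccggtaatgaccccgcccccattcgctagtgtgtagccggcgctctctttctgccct
In Flt1 the match began 53 bases before the start, in Robo4 49 bases and in Emcn 93 bases, and in Eng matches began 52 and 6 bases before it. The stretches of Tek and Kdr hold no AGGAAG on either strand. Both hold the shorter GGAA core, which was not searched for here, in Kdr on the gene's strand and in Tek on the other. Among members whose stretch is not printed, those of Tie1, Flt4, Cd34 and Cldn5 hold no AGGAAG on either strand. Those of Aqp1 and Rasip1 do. Over the 250 bases before the start, AGGAAG on either strand was found in 11 of the 22 member windows, or 50%, and in 29.5% of all 32851 windows. By gene, 10 of 16 members held it (Aqp1, Cd34, Egfl7, Emcn, Eng, Erg, Flt1, Rasip1, Robo4 and Tie1), against 32.3% of all genes. The longer ETS form CCGGAAG was in 0 of the 22 windows (6.91% of all), the SOX motif AACAAT in 3 (9.42%), the GATA motif AGATAA in 2 (9.99%), each on both strands, and TATAAA on the gene's strand in 1, that of Flt1 (7.59%). These are letter matches, and no binding was measured here.

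The array values are intensities. Levels below are log2(intensity + 16) after quantile normalization, and differences are log2 differences with limma's standard error (SE), fitted on all 22518 probe sets that lay above the filter. The labels' database record numbers form 2 runs, the first with the SMGA/EGFP arrays and wild type 1 to 3, the second with the SMAA/EYFP arrays and wild type 4 to 6. The labels do not call these batches. The array of wild type 4 did not match its male label, with an intensity of 29604 for Xist against 80.1 to 250.4 on the other 11 arrays, and of 26.7 for the Y-linked gene Eif2s3y against 3283.9 to 5096.0. Results are therefore also given without it.

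Most of the list lay clear of the filter. The levels of Pecam1, Cdh5, Kdr, Tek and Emcn lay above 10 on every array, whereas the filter stood at 8.02, the median of all probe sets. The tested members nearest to it were Tal1, with a SMAA/EYFP mean of 7.98, and Rasip1, with one of 8.09. No member was listed at 0 on any array, and the lowest deposited intensity, 67.0, was that of Prox1 in wild type 6. The summed intensity of the members ran from 67393 to 94298 in wild type, from 58643 to 82772 in SMGA/EGFP and from 64035 to 80590 in SMAA/EYFP, so the groups overlapped.

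Against wild type, most endothelial genes lay slightly lower in both transgenic groups, and no single gene passed the test. In SMGA/EGFP, 29 of 31 members lay below the wild-type mean, where 52.9% of all tested probe sets did, and the median difference was -0.21 against -0.01 over all probe sets. In SMAA/EYFP, 29 of 31 lay below it as well, where 49.2% of all did, with a median of -0.23 against 0.00. These counts are descriptions. The members were read on the same arrays and varied together, and both comparisons use the same 6 wild-type arrays. With a Benjamini-Hochberg adjustment over all probe sets, 0 of 31 members passed the threshold of 0.05 in SMGA/EGFP (0.0622% of all probe sets did), and 0 of 31 in SMAA/EYFP (0% of all). Adjusted p ran from 0.653 to 0.981 and from 0.991 to 0.998. At an unadjusted p under 0.05, 8 members lay lower in SMGA/EGFP, against 4.16% of all probe sets, and 2 lay lower in SMAA/EYFP, against 2.14%. None lay higher in either. The arrays of 3 members, Icam2, Tek and Nos3, lay wholly below wild type in SMGA/EGFP, where 1.61% of all probe sets did, and 0 members did so in SMAA/EYFP (1.27%).

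The median difference moved with single arrays. Without SMGA/EGFP 2, the median difference was -0.10 with 21 of 31 members below 0. The sign of 8 members turned then (Emcn, Kdr, Eng, Robo4, Sox17, Vwf, Mmrn2 and Plvap). Without SMGA/EGFP 1, the median was -0.36 with 31 of 31 below 0. In SMAA/EYFP, the median without SMAA/EYFP 3 was -0.11 with 27 of 31 below 0. Without wild type 4, 29 members lay below 0 in SMGA/EGFP (median -0.20) and 28 in SMAA/EYFP (median -0.22). Within the first record run the SMGA/EGFP count was 26 of 31, where 51.3% of all probe sets lay below 0, and the median was -0.15. Within the second, the SMAA/EYFP count was 30 of 31, where 52.4% of all did, and the median was -0.27.

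**Figure D1:**
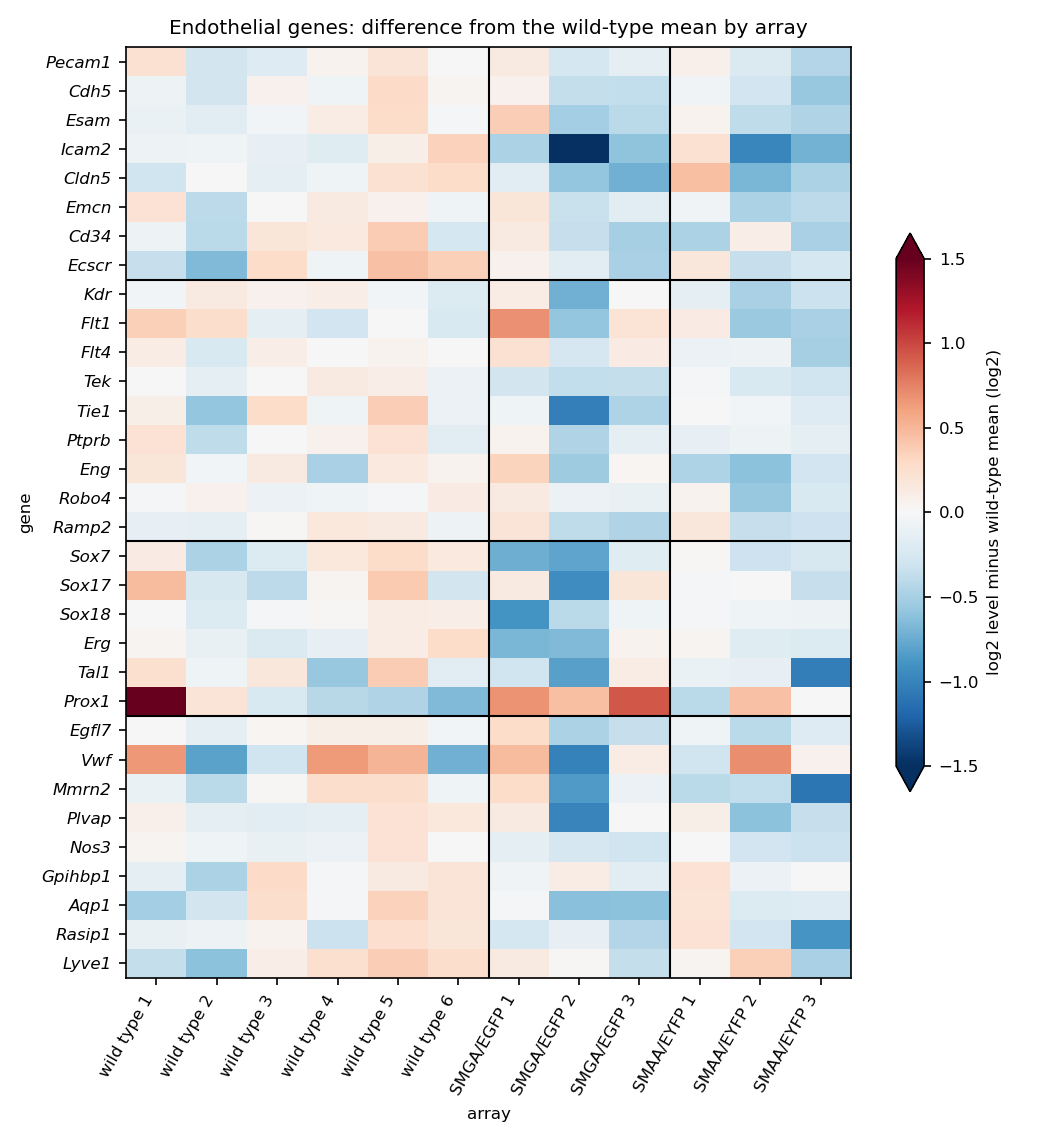
Difference of each endothelial gene (rows, in 4 role groups split by horizontal lines) from its wild-type mean on each of the 12 arrays (columns), as a log2 colour scale cut at -1.5 and 1.5. The column of SMGA/EGFP 2 is blue in 29 of its 31 tested genes and that of SMAA/EYFP 3 in 29, while wild type 5 is blue in 2. Prox1, which was below the filter, is above its wild-type mean on all 3 SMGA/EGFP arrays.

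The first role group holds 8 junction and adhesion proteins. All 8 lay below wild type in both groups, with a median of -0.21 in SMGA/EGFP and -0.27 in SMAA/EYFP, and 0 of 8 passed the test. Icam2, an integrin ligand on resting endothelium, had the widest gap. Its wild-type levels were 10.42 at lowest, 10.52 at the median and 10.95 at highest, the SMGA/EGFP arrays lay at 10.12, 8.84 and 10, and the SMAA/EYFP arrays at 10.83, 9.62 and 9.89. All 3 SMGA/EGFP arrays were below every wild-type array, and the second was far below the other two, whereas SMAA/EYFP 1 lay among the wild-type arrays. The wild-type mean was 10.60 ± 0.19 (SD, n = 6) and the SMGA/EGFP mean 9.65 ± 0.71 (SD, n = 3), a difference of -0.94 ± 0.29 (SE), or 1.92-fold higher in wild type, with an adjusted p of 0.653. Without SMGA/EGFP 2 it was -0.54.

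Cldn5, the claudin of endothelial tight junctions, lay at 11.68 to 12.26 in wild type (median 11.94), at 11.81, 11.40 and 11.26 in SMGA/EGFP and at 12.43, 11.30 and 11.51 in SMAA/EYFP. SMGA/EGFP 1 lay within the wild-type range and SMAA/EYFP 1 above it, and the other 4 transgenic arrays lay below it. The difference was -0.49 ± 0.22 (SE; adjusted p = 0.718) in SMGA/EGFP and -0.23 ± 0.22 in SMAA/EYFP. Cdh5, the cadherin of endothelial adherens junctions, lay at 10.91 to 11.47 in wild type (median 11.16), at 11.24, 10.82 and 10.81 in SMGA/EGFP and at 11.13, 10.89 and 10.61 in SMAA/EYFP. In each transgenic group, 1 array was within the wild-type range and the other two were below it. The difference was -0.22 ± 0.15 (SE) in SMGA/EGFP and -0.30 ± 0.15 in SMAA/EYFP, and -0.17 in SMAA/EYFP without its array 3. Emcn, a sialomucin of capillary and venous endothelium, had wild-type levels of 10.80 to 11.41 (median 11.23). It lay within that range on all 3 SMGA/EGFP arrays (11.37, 10.86 and 11.03) and at 11.14, 10.71 and 10.80 in SMAA/EYFP, a difference of -0.30 ± 0.16 (SE) in the latter and -0.10 ± 0.16 in the former. Of the other junction and adhesion genes, Pecam1 differed by -0.09 ± 0.15 and -0.19 ± 0.15, and Esam by -0.18 ± 0.18 and -0.26 ± 0.18, in SMGA/EGFP and SMAA/EYFP. For Cd34, the sialomucin that also marks haematopoietic progenitors, the values were -0.23 ± 0.19 and -0.28 ± 0.19, and for Ecscr -0.20 ± 0.23 and -0.15 ± 0.23. Within the record runs the Ecscr differences were 0.05 and -0.39.

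Of the 9 receptors and receptor partners, 7 lay below wild type in SMGA/EGFP (median -0.18) and 9 in SMAA/EYFP (median -0.23), and 0 of 9 passed in either. Tek, the angiopoietin receptor, varied least among the genes with separated arrays. It lay at 10.93 to 11.20 in wild type (median 11.06), at 10.78, 10.69 and 10.70 in SMGA/EGFP and at 11.04, 10.83 and 10.76 in SMAA/EYFP. The SMGA/EGFP arrays were close to each other and all below wild type, while 1 SMAA/EYFP array lay inside the wild-type range. The difference was -0.34 ± 0.11 (SE), or 1.27-fold higher in wild type, with an adjusted p of 0.664, and it stayed between -0.37 and -0.31 when each array was left out in turn. In SMAA/EYFP it was -0.19 ± 0.11. Tie1, the related orphan receptor that partners with Tek, lay at 8.34 to 9.29 in wild type (median 8.93), at 8.86, 7.89 and 8.46 in SMGA/EGFP and at 8.91, 8.88 and 8.73 in SMAA/EYFP. SMGA/EGFP 2 alone was below the wild-type range. The difference of -0.52 ± 0.23 (SE; adjusted p = 0.718) in SMGA/EGFP was -0.26 without that array, and the SMAA/EYFP difference was -0.08 ± 0.23.

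Kdr, the main signalling receptor for vascular endothelial growth factor A, had wild-type levels of 11.44 to 11.77 (median 11.65). SMGA/EGFP 2 lay at 10.92, below that range, and SMGA/EGFP 1 and 3 at 11.75 and 11.64, within it. The SMAA/EYFP arrays lay at 11.50, 11.15 and 11.32, the last 2 below it. The difference was -0.21 ± 0.16 (SE) in SMGA/EGFP, or 0.05 without SMGA/EGFP 2, and -0.32 ± 0.16 in SMAA/EYFP. Flt1, which binds the same ligand and also exists as a soluble decoy, and Flt4, the receptor of lymphatic endothelium, were the only tested members above wild type in SMGA/EGFP, by 0.11 ± 0.25 and 0.03 ± 0.15. In SMAA/EYFP they lay at -0.31 ± 0.25 and -0.23 ± 0.15.

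Eng, a co-receptor for TGF-beta family ligands, showed a different order of the groups. Its wild-type levels were 10.63 at lowest, 11.21 at the median and 11.30 at highest, the SMGA/EGFP arrays lay at 11.45, 10.59 and 11.15, and the SMAA/EYFP arrays at 10.66, 10.50 and 10.83. All 3 SMAA/EYFP arrays were below 5 of the 6 wild-type arrays, and the one wild-type array among them was wild type 4. The difference was -0.46 ± 0.19 (SE; adjusted p = 0.991) in SMAA/EYFP, -0.55 without wild type 4, and -0.06 ± 0.19 in SMGA/EGFP. Robo4, which stabilises vessels, lay at 10.05 to 10.26 in wild type (median 10.11), one of the narrowest ranges here. It was at 10.27, 10.05 and 10.03 in SMGA/EGFP and at 10.19, 9.57 and 9.91 in SMAA/EYFP, differences of -0.02 ± 0.14 and -0.25 ± 0.14 (SE), the latter resting on SMAA/EYFP 2, without which it was -0.09. Ptprb, the phosphatase that acts on Tek, differed by -0.18 ± 0.14 and -0.10 ± 0.14, and Ramp2, the partner of the adrenomedullin receptor, by -0.21 ± 0.16 and -0.16 ± 0.16, in SMGA/EGFP and SMAA/EYFP.

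The transcription factors lay lowest in SMGA/EGFP as a group, with all 5 tested members below wild type and a median of -0.43, and 0 of 5 passed. In SMAA/EYFP all 5 were below it with a median of -0.13. These medians use wild type of both record runs. Within the runs, the SMGA/EGFP and SMAA/EYFP differences were -0.34 and -0.21 for Erg and -0.37 and -0.14 for Sox18. They were -0.15 and -0.18 for Sox17 and -0.45 and -0.30 for Tal1. Sox7, Sox17 and Sox18 form the SOX group that acts in vessel and lymphatic development. For Sox7, wild type ranged from 9.64 to 10.38 (median 10.25), the SMGA/EGFP arrays were at 9.38, 9.32 and 9.93, and the SMAA/EYFP arrays at 10.13, 9.80 and 9.87. SMGA/EGFP 1 and 2 were below all wild-type arrays and the third was among them. The difference was -0.57 ± 0.19 (SE; adjusted p = 0.678) in SMGA/EGFP and -0.18 ± 0.19 in SMAA/EYFP, but within the record runs it was -0.38 and -0.37. For Sox18, wild type ranged from 11.06 to 11.38 (median 11.27), the SMGA/EGFP arrays were at 10.37, 10.87 and 11.21, and the SMAA/EYFP arrays stood close together at 11.24, 11.20 and 11.19. Here SMGA/EGFP 1 was lowest. The difference of -0.45 ± 0.15 (SE; adjusted p = 0.678) in SMGA/EGFP was -0.22 without that array, and in SMAA/EYFP it was -0.06 ± 0.15.

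Erg, an ETS factor that maintains endothelial identity, lay at 9.44 to 9.94 in wild type (median 9.63), at 8.98, 9.0 and 9.71 in SMGA/EGFP and at 9.70, 9.48 and 9.45 in SMAA/EYFP. As for Sox7, SMGA/EGFP 1 and 2 were below every wild-type array and SMGA/EGFP 3 was not. The difference was -0.43 ± 0.18 (SE; adjusted p = 0.712) in SMGA/EGFP and -0.12 ± 0.18 in SMAA/EYFP. Sox17, an arterial regulator, differed by -0.21 ± 0.25 and -0.13 ± 0.25, and Tal1, which is shared with blood cell precursors, by -0.33 ± 0.28 and -0.42 ± 0.28. Prox1, the master regulator of lymphatic identity, was below the filter, with a wild-type range of 6.39 to 8.61 (median 6.72). It lay at 7.72, 7.5 and 7.98 in SMGA/EGFP and at 6.65, 7.49 and 7.04 in SMAA/EYFP. It had the widest wild-type spread of the list (SD 0.82), since wild type 1 stood far above the rest, and its difference without a filter was 0.69 ± 0.43 (SE) in SMGA/EGFP and 0.01 ± 0.43 in SMAA/EYFP.

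**Figure D2:**
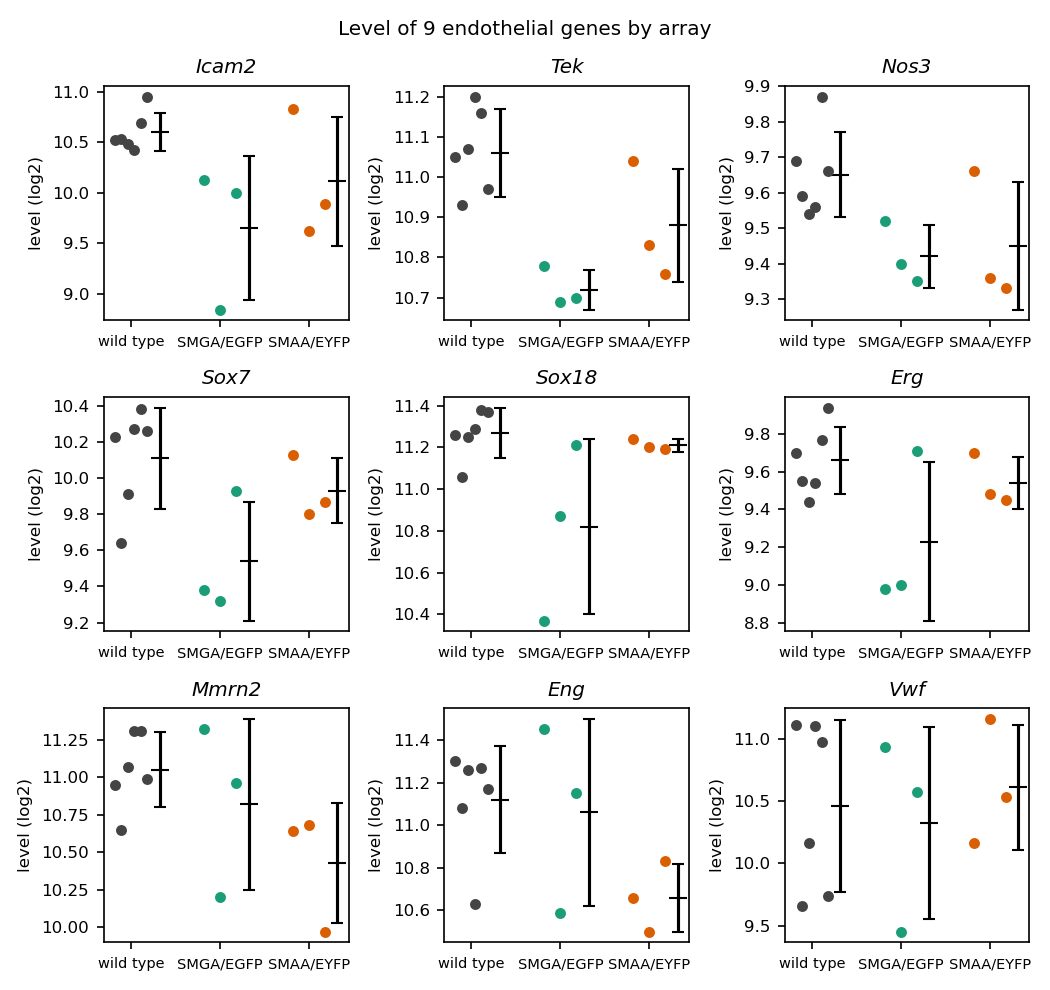
Level (log2, own axis per gene, not starting at 0) of 9 endothelial genes on each array of wild type (6), SMGA/EGFP (3) and SMAA/EYFP (3), with the group mean and SD as bars. The SMGA/EGFP points of Icam2, Tek and Nos3 all lie under the wild-type points, those of Sox7, Sox18 and Erg under them on 2 of 3 arrays, and for Eng the SMAA/EYFP points lie between 10.50 and 10.83.

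The last 9 genes are secreted proteins, enzymes and genes of vessel function. All 9 lay below wild type in SMGA/EGFP (median -0.22) and 7 did in SMAA/EYFP (median -0.20), and 0 of 9 passed in either. Nos3, the endothelial nitric oxide synthase that relaxes the vessel wall, lay at 9.54 to 9.87 in wild type (median 9.63), at 9.52, 9.40 and 9.35 in SMGA/EGFP and at 9.66, 9.36 and 9.33 in SMAA/EYFP. The SMGA/EGFP arrays were all below wild type, the nearest by a narrow margin, and 2 of the SMAA/EYFP arrays were. The difference was -0.23 ± 0.13 (SE; adjusted p = 0.745) in SMGA/EGFP and -0.20 ± 0.13 in SMAA/EYFP. Mmrn2, a matrix protein that binds vascular endothelial growth factor, had wild-type levels of 10.65 to 11.31 (median 11.03). It lay at 11.32, 10.20 and 10.96 in SMGA/EGFP and at 10.64, 10.68 and 9.97 in SMAA/EYFP, where SMAA/EYFP 3 was the lowest array of all and the other two lay near the bottom of the wild-type range. The difference was -0.62 ± 0.23 (SE; adjusted p = 0.991) in SMAA/EYFP, the largest there, or -0.39 without SMAA/EYFP 3, and -0.22 ± 0.23 in SMGA/EGFP.

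Aqp1, the water channel of endothelium, lay at 12.77 to 13.62 in wild type (median 13.36), at 13.26, 12.65 and 12.66 in SMGA/EGFP and at 13.48, 13.08 and 13.09 in SMAA/EYFP. SMGA/EGFP 2 and 3 were just below all wild-type arrays. The differences were -0.42 ± 0.19 (SE; adjusted p = 0.718) and -0.06 ± 0.19, and within the record runs -0.25 and -0.23. Vwf, the clotting factor stored in endothelial granules, varied most among the tested members within wild type (SD 0.69), from 9.66 to 11.11 (median 10.56), with 3 arrays near 11 and the other 3 at 10.16 or below. Its differences of -0.14 ± 0.39 (SE) in SMGA/EGFP and 0.16 ± 0.39 in SMAA/EYFP were small beside that spread. Plvap, the diaphragm protein of fenestrated endothelium, differed by -0.29 ± 0.22 in both groups, but by 0.06 without SMGA/EGFP 2 and by -0.13 without SMAA/EYFP 2, and Egfl7, a secreted endothelial factor, by -0.19 ± 0.15 and -0.23 ± 0.15. Rasip1, needed for vessel lumen formation, differed by -0.27 ± 0.23 and -0.32 ± 0.23. Gpihbp1, which anchors lipoprotein lipase on capillaries, differed by -0.03 ± 0.15 and 0.05 ± 0.15, and Lyve1, the hyaluronan receptor of lymphatic endothelium and some macrophages, by -0.07 ± 0.23 and -0.03 ± 0.23, in SMGA/EGFP and SMAA/EYFP. Within the record runs the Lyve1 differences were 0.23 and -0.32.

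**Figure D3:**
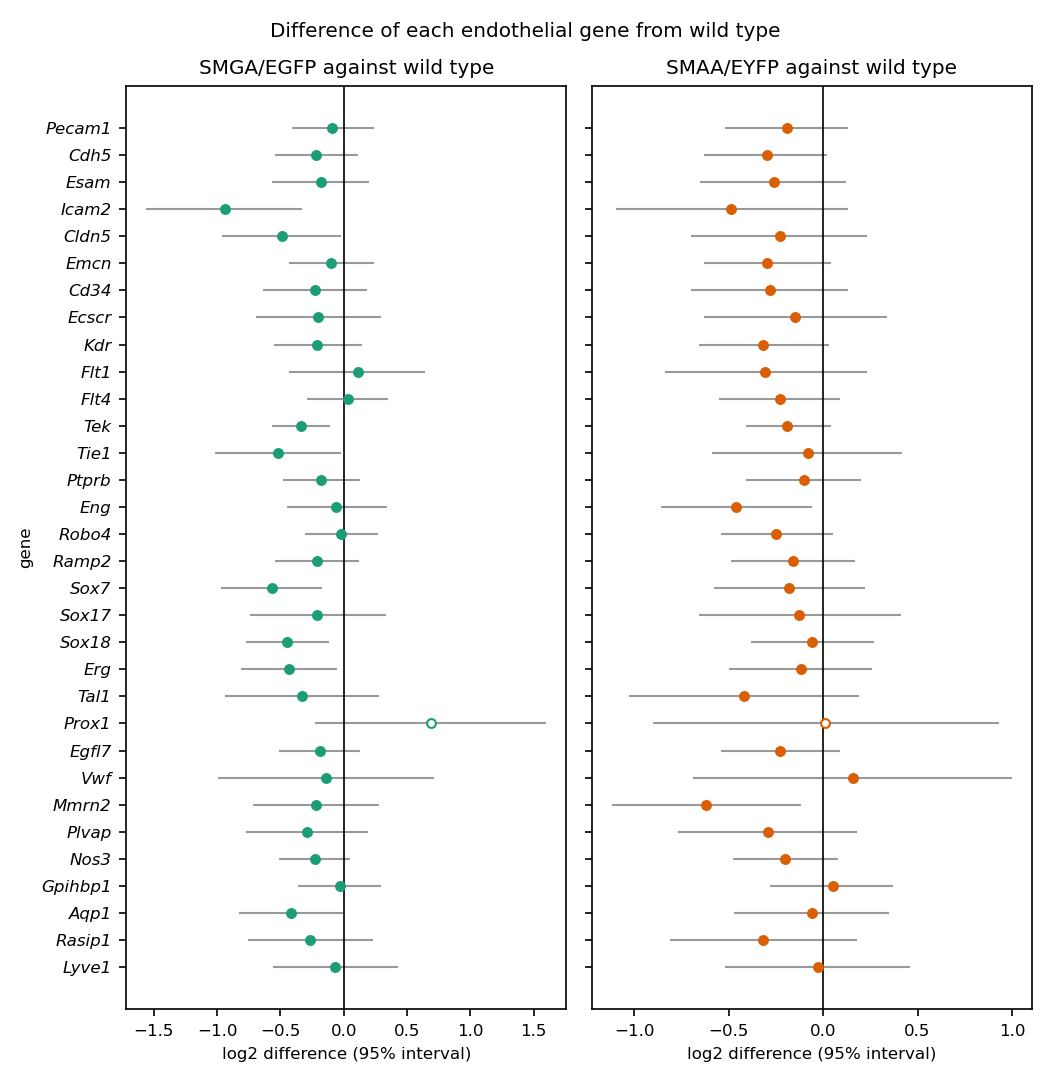
Log2 difference of each endothelial gene from wild type in SMGA/EGFP (left) and SMAA/EYFP (right), with the 95% interval of limma's fit; the open symbol of Prox1 comes from the fit without a filter. Most points lie left of 0, at -0.94 to 0.11 on the left and -0.62 to 0.16 on the right for the tested genes, and most intervals cross 0.

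Set directly against each other, the transgenic groups differed in both directions over the endothelial genes. Of 31 members, 16 lay lower in SMGA/EGFP than in SMAA/EYFP, where 53.9% of all probe sets did, with a median of -0.03 against -0.02 over all. With arrays centred on their median the median over all probe sets itself moved to -0.12, and that of the members was also -0.12, with 23 below 0. None of the 31 passed the test (0.0799% of all probe sets did), 1 had an unadjusted p under 0.05 and was lower (5.12% of all), and 0 had arrays wholly lower (8.06%). The differences ran from -0.46 to 0.41. Sox18 lay lower in SMGA/EGFP by the log2 difference -0.39 ± 0.17 (SE; 95% interval -0.77 to -0.02, adjusted p = 0.518), Sox7 by -0.39 ± 0.21 (interval -0.85 to 0.07), Aqp1 by -0.36 ± 0.22 (interval -0.83 to 0.12), Tie1 by -0.43 ± 0.27 (interval -1.01 to 0.15) and Erg by -0.31 ± 0.20 (interval -0.75 to 0.13). Eng lay on the other side, at 0.40 ± 0.21 (interval -0.06 to 0.86). By role, 4 of 5 transcription factors lay lower in SMGA/EGFP (median -0.31), against 3 of 8 junction genes (median 0.07), 4 of 9 receptors (median 0.11) and 5 of 9 genes of the last group (median -0.03). Each transgenic group lies in its own record run. With the run as a covariate the median of the members was 0.10 with 9 of 31 below 0. The differences named above were then smaller, at -0.01 for Sox7, -0.01 for Aqp1, -0.12 for Erg, -0.23 for Sox18, -0.30 for Tie1 and 0.21 for Eng. Some other members moved further from 0: Mmrn2 from 0.39 to 0.71, Lyve1 from -0.03 to 0.55 and Ecscr from -0.05 to 0.44.

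With both transgenic groups combined, which balances the runs, 29 of 31 members lay below wild type (52.2% of all probe sets) with a median of -0.24 against -0.01. None passed the test (0.00444% of all), 4 had an unadjusted p under 0.05 and were lower (1.94%), and 0 had arrays wholly below wild type (0.107%). The 4 were Icam2 (-0.71 ± 0.23, SE), Tek (-0.26 ± 0.09), Sox7 (-0.38 ± 0.15) and Mmrn2 (-0.42 ± 0.19), with an adjusted p of 0.996 for each. Next in order were Cdh5 (-0.26 ± 0.12) and Nos3 (-0.22 ± 0.11). Without SMGA/EGFP 2 the median was -0.14 with 28 of 31 below 0.

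The arrays of each transgenic group differed among themselves. Of the 31 members, 24 lay below the lowest wild-type array in SMGA/EGFP 2, 12 in SMGA/EGFP 3 and 6 in SMGA/EGFP 1, and 19 did in SMAA/EYFP 3, 14 in SMAA/EYFP 2 and 2 in SMAA/EYFP 1. Over all probe sets this share was 18.1%, 13.2%, 24%, 13.2%, 12.8% and 15.5% in the same order of arrays. SMGA/EGFP 1 also lay above the highest wild-type array for 8 of the 31 members, where 18.6% of all probe sets did. Its role scores split, a score being the mean log2 deviation of a list's tested genes from their 12-array means. The score was -0.35 for the transcription factors, 0.18 for the junction genes, 0.25 for the receptors and 0.19 for the last group. Single genes departed from their role on this array. Icam2 (10.12) and Tek (10.78) lay below every wild-type array, and Sox17 (11.31) lay above its wild-type mean of 11.18. In SMGA/EGFP 2 all 4 role scores were low, at -0.57 for the transcription factors, -0.39 for the junction genes, -0.39 for the receptors and -0.37 for the rest. SMGA/EGFP 3 split the other way, at 0.17 for the transcription factors, against a wild-type mean of 0.14, and at -0.27, -0.03 and -0.15 for the junction genes, the receptors and the rest. Among wild-type arrays the score of all 31 members ran from -0.12 in wild type 2 to 0.33 in wild type 5, and its mean was 0.04 over the 3 arrays of the first run and 0.19 over those of the second.

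The members also varied together across the 12 arrays. The correlation of a member with the mean of the other members had a median r of 0.67, a value that 4.04% of the 20045 named probe sets of other genes reached. It was highest for Cdh5 (0.89), Esam (0.86) and Plvap (0.84) and lowest for Sox18 (0.22), Gpihbp1 (0.26) and Vwf (0.35). The 10 other genes most like the members' score were Ifi27, Iftap, Clec11a and Npl (r = 0.96 each), Rcn3, Arap3, Pnck and Cox6b2 (0.94), and Serpinf1 and Cd93 (0.93). Over the 6 wild-type arrays alone their r ran from 0.76 to 0.98. Of these 10, Cd93 alone was on one of the other endothelial lists. All these values share the same 12 arrays and their normalization.

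Further genes of vessel growth were read from 3 lists outside the members. Of 11 tested ligands and co-receptors of the vascular endothelial growth factor and angiopoietin pathways, 9 lay below wild type in SMGA/EGFP (median -0.10) and 10 in SMAA/EYFP (median -0.09), and 0 passed. Aplnr, the apelin receptor, was at -0.44 ± 0.13 (SE; adjusted p = 0.611) in SMGA/EGFP, Pgf, a growth factor that binds Flt1, at -0.83 ± 0.39, and Vegfa itself at -0.14 ± 0.19. Of 12 tested Notch, arterial and venous genes, 5 lay below wild type in SMGA/EGFP (median 0.13) and 6 in SMAA/EYFP (median 0.01), and 0 passed. Nr2f2, the regulator of venous identity, was at 0.37 ± 0.17 in SMGA/EGFP and the arterial connexin gene Gja4 at -0.42 ± 0.23. Of 22 tested other endothelial genes, 15 lay below wild type in SMGA/EGFP (median -0.11) and 19 in SMAA/EYFP (median -0.12), and 0 passed. The ETS factor Fli1 was at -0.56 ± 0.19 (adjusted p = 0.678) and the surface protein Clec14a at -0.30 ± 0.13 in SMGA/EGFP.

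Markers of other cell types were read beside the members. Mesothelial genes, which mark the outer covering of the bladder, held the only called genes of the lists. The lists were chosen with earlier results of these data known. Against wild type, 3 of 8 were called in SMGA/EGFP, all lower, where 0.0622% of all probe sets were called. They were Gpm6a with a log2 difference of -2.74 ± 0.34 (SE, adjusted p = 0.00557), Lrrn4 with -2.75 ± 0.36 (adjusted p = 0.00946) and Muc16 with -2.06 ± 0.30 (adjusted p = 0.0167). Of the rest, Msln was at -1.41 ± 0.30 (adjusted p = 0.300), Wt1 at -0.47 ± 0.28 and Upk3b at -0.13 ± 0.10. Krt19 was at 0.00 ± 0.13 and Upk1b at 0.05 ± 0.06. The median of the list was -0.94. With the record run as a covariate 2 passed, Lrrn4 and Gpm6a, and within the run 0 of 8 did, at -2.27 for Gpm6a, -2.26 for Lrrn4 and -1.63 for Muc16. With wild type 4 left out and the run as a covariate 0 passed, and with single arrays left out 1 to 4 did, the fewest without SMGA/EGFP 2. In SMAA/EYFP against wild type 0 of 8 passed, 1 of 8 lay below 0 and the median was 0.52. By score, wild type of the second run averaged 0.43 and SMAA/EYFP 0.63. Between the transgenic groups, which lie in different runs, Gpm6a, Lrrn4, Muc16 and Msln (-2.35 ± 0.35, adjusted p = 0.0178) were called lower in SMGA/EGFP. With the run as a covariate 0 passed (Gpm6a -2.52 ± 0.43, adjusted p = 0.196), and without SMAA/EYFP 2 only 1 did, Gpm6a. The list holds Krt19 and Upk1b, which the urothelium also expresses, and its summed intensity was 92185 to 108574 in wild type, 89636 to 98489 in SMGA/EGFP and 108526 to 125569 in SMAA/EYFP. That sum mostly follows Upk1b, Krt19 and Upk3b, with wild-type mean levels of 15.46, 14.95 and 14.01. The called genes add little to it, at 10.57 for Gpm6a, 10.08 for Lrrn4 and 9.32 for Muc16. Leukocyte genes were below wild type for 12 of 13 in SMGA/EGFP (median -0.21) and 8 of 13 in SMAA/EYFP (median -0.07), with summed intensities of 21094 to 27756, 16865 to 26652 and 22485 to 24917 in wild type, SMGA/EGFP and SMAA/EYFP. Ptprc was at -0.39 ± 0.15 and Lyz2 at -0.52 ± 0.20 in SMGA/EGFP. These leukocyte medians use wild type of both record runs. By run, the leukocyte score averaged -0.05 (wild type) and -0.18 (SMGA/EGFP) over the first. Over the second it averaged 0.20 (wild type) and 0.03 (SMAA/EYFP), so by run SMGA/EGFP did not stand out. Urothelial genes were below wild type for 1 of 12 in SMGA/EGFP (median 0.19) and 0 of 12 in SMAA/EYFP (median 0.22), with summed intensities of 215750 to 285938, 255098 to 292094 and 280468 to 304657, and Upk1a was at 0.28 ± 0.14 and Upk2 at 0.30 ± 0.14 in SMGA/EGFP. None of the leukocyte and urothelial genes passed. The part of these lists in the endothelial differences was not tested.

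The remaining lists cover the mural, muscle, stromal, blood and nerve cells of the bladder. In SMGA/EGFP and SMAA/EYFP the median was 0.02 and -0.10 for 7 pericyte genes, whose cells wrap the vessels, -0.02 in both for 10 smooth muscle genes and -0.01 and -0.15 for 10 fibroblast genes. Kcnj8 (-0.33 ± 0.14) and Rgs5 (0.15 ± 0.11) were the pericyte genes of smallest p in SMGA/EGFP, Smtn (-0.20 ± 0.17) and Lmod1 (-0.22 ± 0.21) those of smooth muscle, and Dpt (-0.48 ± 0.25) and Lum (-0.25 ± 0.18) those of fibroblasts. Platelet genes, 5 of 8 tested, had medians of -0.21 and 0.10, with Pf4 at -0.34 ± 0.20 and Ppbp at -0.58 ± 0.38 in SMGA/EGFP, and the one tested erythroid gene, Alas2, was at -0.52 ± 0.42 in SMGA/EGFP. Neuron and Schwann cell genes had medians of 0.84 and 0.05 over 8 genes, with Erbb3 at 0.37 ± 0.18 and Chrna3 at 1.18 ± 0.59, and skeletal muscle genes -0.10 and -0.22 over 8, with Tnnt3 at -0.37 ± 0.18 and Mylpf at 2.24 ± 1.33. None passed in these lists. The medians use wild type of both record runs, and some scores differed between runs. For neuron and Schwann cell genes, wild type averaged 0.50 over the first run and -0.94 over the second. Beside these, SMGA/EGFP (first run) averaged 0.57 and SMAA/EYFP (second run) -0.13. By run, SMGA/EGFP thus lay close to wild type and SMAA/EYFP higher, unlike the medians. Platelet scores averaged -0.17 (wild type) and -0.16 (SMGA/EGFP) over the first run, 0.26 (wild type) and 0.08 (SMAA/EYFP) over the second.

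**Figure D4:**
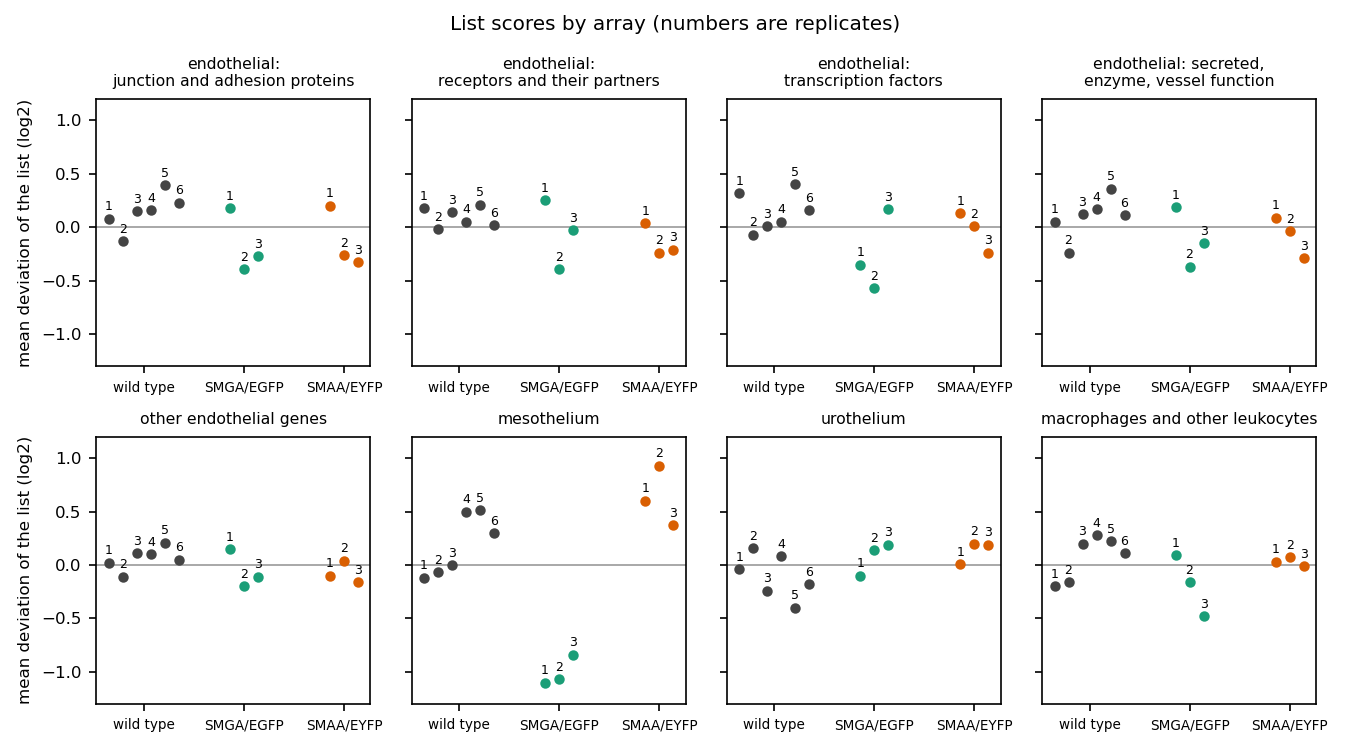
Score of 8 gene lists (mean log2 deviation of the tested genes from their 12-array means) on each array, by group, with the replicate number above each point. The 4 endothelial role groups stand in the upper row, where SMGA/EGFP 2 is lowest in each, and the mesothelial score of SMGA/EGFP lies between -1.10 and -0.84, below all other arrays.

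Members with several probe sets gave a check within the array. The 13 further tested probe sets of members lay below wild type in 10 cases in SMGA/EGFP and in 10 in SMAA/EYFP. For Mmrn2 the 4 probe sets were at -0.22, -0.27, -0.56 and -0.30 in SMGA/EGFP and at -0.62, -0.29, -0.18 and -0.40 in SMAA/EYFP, so the sign was shared and the size was not. For Flt1 the 4 were at 0.11, 0.24, -0.02 and 0.08 in SMGA/EGFP and at -0.31, 0.13, -0.38 and -0.31 in SMAA/EYFP, so the sign differed between probe sets in both. The second Eng probe set was at -0.22 ± 0.17 (SE) in SMAA/EYFP, less than the first at -0.46 ± 0.19. The 4 of Egfl7 lay at -0.23 to -0.16 in SMGA/EGFP and at -0.23 to 0.06 in SMAA/EYFP.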

How the data were processed

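Total RNA of whole bladders was amplified in 1 round and hybridised to Affymetrix mouse arrays, per the labels. The authors deposited 1 linear intensity value for each probe set, computed in GCOS according to the submitters' processing notes. Its version and settings are not given in the sources used here. The trimmed mean (2% off each end) was 1500.01 on every array, and median intensity ran from 229.39 to 305.94.

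Of 45101 probe sets, 64 controls were left out. Values were taken as log2(intensity + 16), quantile-normalized, and the 22518 probe sets with a mean above the median of all means (8.02) were tested in R 4.3.3 with limma 3.58.1 (lmFit, eBayes with trend, two-sided, all 12 arrays in 1 fit), with Benjamini-Hochberg adjustment over all of them and a threshold of 0.05. The script was tested on simulated data. Precision is limited by the number of arrays (6, 3 and 3). The p-values set each difference against the spread between arrays within the groups. Which arrays share a litter is not given here, so that spread need not hold litter or sire differences. The labels give no replicate numbers, so arrays are numbered in record order and are not paired.

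Gene symbols came from the platform annotation, updated through RefSeq, which changed 0 of them. The members and the gene lists were chosen with earlier results of these data known. Values by array are given for members whose arrays did not overlap and for the 6 of smallest p in each comparison, from other lists the called genes and the 2 of smallest p in SMGA/EGFP against wild type (Vegfa, outside this rule, was named for its role), and by correlation the 10 genes most like the members' mean. Alternatives covered normalization, pseudocount, filter, fit, record run, probe set choice and each array left out. No sequence of proteins or probes was used here.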

Additional observations from a re-analysis of the deposited data

Results flagged for a closer look

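Among 52 sets of wild-type values examined for a single array standing apart, 6 had an array whose gap to the nearest other, divided by the range of the 6 arrays, was above Dixon's 95% critical value, and chance alone flags about 1 in 20 such sets. For the 32 endothelial genes there were 2. Flt4 lay at 9.47 in wild type 2, whose nearest neighbour was at 9.69. Eng lay at 10.63 in wild type 4, with the next at 11.08. The pericyte score was 0.20 in wild type 5, with the next at 0.03. The skeletal muscle score was 1.26 in wild type 2, with the next at -0.06. In wild type 4 the intensity of Xist was 29604, against 250.41 for the next highest wild-type array, and that of Eif2s3y was 26.7, against 3786.27 for the next lowest; both go against the male label of that array.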

How the results depend on the processing

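No endothelial gene passed in any comparison under any setting; the smallest adjusted p under any setting was 0.181 for SMGA/EGFP and 0.223 for SMAA/EYFP, each against wild type, 0.259 between the transgenic groups and 0.247 for both combined against wild type. The sign held under every setting for 18, 27, 12 and 26 of 31 members in that order. Counts of all probe sets called moved more, and the cause was not tested. In some settings fewer arrays or probe sets entered the fit. In SMGA/EGFP against wild type, 14 were called, 5 with the filter at the 75th percentile, 8 with only the arrays compared, 1 within the record run, 2 without wild type 4 and with the run as a covariate (chosen after seeing the data), and 6 to 20 with single arrays left out. In SMAA/EYFP against wild type, 0 were called (limma; 481 lower at an unadjusted p under 0.05), and 5 with arrays centred on their median and 5 with array weights. In SMGA/EGFP against SMAA/EYFP, 18 were called, 10 with the 75th percentile filter, 2 with the run as a covariate, 1 with wild type 4 left out besides, and 4 to 22 with single arrays left out. For both groups against wild type, 1 was called, 0 with centred arrays and 3 with array weights. The median difference of the members in SMGA/EGFP against wild type was -0.36 to -0.10 with single arrays left out, and in SMGA/EGFP against SMAA/EYFP it was 0.14 without wild type 4 and with the run as a covariate. No paired analysis was possible because the labels carry no replicate numbers. The 3 arrays of each transgenic group, with SE of 0.11 to 0.39 against wild type, limit what could be called.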
